A study of Lotus japonicus with 6 samples.

Results

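The transcripts described here are 100 of the 46398 listed for root nodules of the legume Lotus japonicus: those that were close to absent from control nodules and most abundant in nodules that overexpressed a NAC transcription factor. They were chosen by their counts in all 6 libraries. Of the 11626 transcripts with whole-number counts in every library, 2928 had a mean under 1 CPM in control nodules (CPM is the count divided by the summed counts of its library and scaled to 1000000), and the 100 with the highest mean CPM in the overexpressing nodules were kept. The groups were 3 libraries labelled GUS-OE, from nodules overexpressing the reporter GUS, and 3 labelled NAC-OE. All came from whole nodules at 3 weeks post-inoculation of lines in the MG-20 background. The sources used here name neither the promoter of each construct nor the number of independent lines behind a group. The study, by its title, concerns NAC094 and premature nodule senescence, and the comparison asks how nodule transcripts differ when the factor is expressed ectopically.

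Legume nodules house rhizobia that reduce nitrogen for the plant in exchange for carbon. In senescence the symbiotic cells and their bacteria are broken down and their nutrients are remobilised. NAC proteins are plant-specific transcription factors, several of which promote senescence in leaves. No source used here pairs the identifiers of the table with gene names, so the transcripts are described by identifier, level, length and place, and no role is given to any of them. For the same reason the nodule label could not be checked against marker genes, and the overexpressed transcript could not be checked. In bulk nodules, fewer cells of a type and less RNA per cell cannot be told apart.

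The libraries held between 35531188 and 39513316 counts, so that 3 counts over the 3 GUS-OE libraries correspond to 0.0267 CPM. Low counts were mostly even. Among transcripts with whole-number counts, 67.1% to 73.0% of the values from 1 to 20 were even, against 49.5% to 51.0% of the values over 200. Low counts therefore cannot be read as that many independent fragments, and the precision of a near-0 level is lower than its count implies. Nothing in the labels says that the 3 libraries of a group came from separate plants or cultures, so their spread may be technical.

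Together the 100 transcripts held 0.350%, 0.340% and 0.516% of all counts in NAC-OE replicates 1, 2 and 3, or 0.402% ± 0.0990 (SD, n = 3). In GUS-OE replicates 1, 2 and 3 they held 0.00411%, 0.00371% and 0.00502%, or 0.00428% ± 0.000672 (SD, n = 3). These values were used in the choice and are given as a description. The list was uneven. The first transcript alone made up 15.3% to 25.8% of the members' counts in the NAC-OE libraries, and the first 10 made up 56.1% to 67.0%. The mean NAC-OE level was at least 100 CPM for 8 transcripts, at least 50 CPM for 15, at least 20 CPM for 31 and at least 10 CPM for 65. The median of the means was 12.7 CPM and the lowest was 6.99 CPM.

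**Figure D1:**
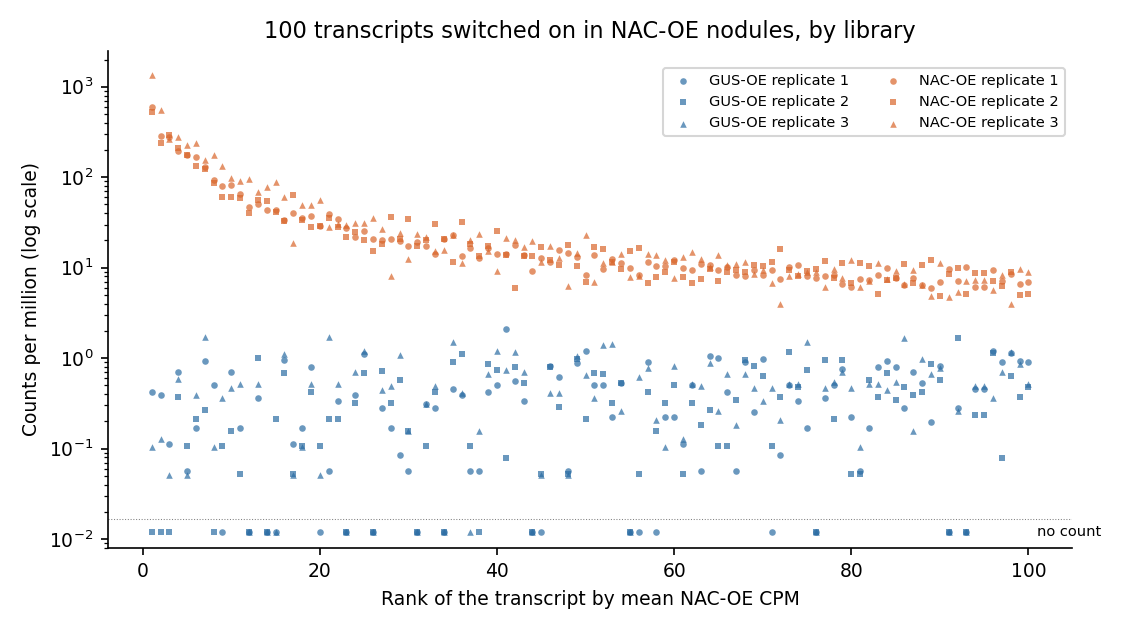
CPM on a log axis of each of the 100 transcripts in each of the 6 libraries, ordered by mean NAC-OE CPM, with values of 0 drawn on the line marked as no count. NAC-OE values fall from 1333 CPM to 3.92 CPM along the ranks, while GUS-OE values lie at or under 2.11 CPM throughout.

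The transcript with the most counts was Lj0g3v0000069.1, of 945 bases on sequence not placed on a chromosome. It had 15, 0 and 4 counts in GUS-OE replicates 1, 2 and 3. In NAC-OE replicates 1, 2 and 3 it had 22666, 18781 and 52660 counts. The third of these libraries stood apart, and the mean of 818 ± 447 CPM (SD, n = 3) was 561 CPM without it. Lj3g3v3054430.1, of 1683 bases, was next with 14, 0 and 5 counts in the control libraries and 10877, 8576 and 21817 in the NAC-OE libraries. Its mean was 359 ± 169 CPM (SD, n = 3), and its highest library was again NAC-OE replicate 3. Lj3g3v3236640.1, of 462 bases, behaved otherwise. It had 4, 0 and 2 counts in the control libraries and 10412, 10522 and 10549 in the NAC-OE libraries, so that its NAC-OE libraries were nearly equal at 278 ± 12.4 CPM (SD, n = 3).

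Another 5 transcripts had means above 100 CPM in NAC-OE. Lj2g3v0561290.1, of 393 bases, had 25, 14 and 23 counts in the control libraries and 7357, 7683 and 11015 in the NAC-OE libraries (229 ± 44.0 CPM, SD, n = 3). Lj0g3v0079899.1, of 1236 bases, had 2, 4 and 2 counts in the control libraries and 6619, 6400 and 8997 in the NAC-OE libraries (194 ± 29.6 CPM, SD, n = 3). Both were highest in NAC-OE replicate 3 and were counted in each GUS-OE library. Lj0g3v0167849.1 had 6, 8 and 15 counts in the control libraries and 6374, 4785 and 9334 in the NAC-OE libraries (179 ± 52.6 CPM, SD, n = 3). Lj2g3v2771220.1 had 33, 10 and 66 counts in the control libraries and 4891, 4445 and 6113 in the NAC-OE libraries (136 ± 16.6 CPM, SD, n = 3). The latter lay close to the 1 CPM ceiling in the control, at 0.965 CPM on average. Lj2g3v1277810.1 had 18, 0 and 4 counts in the control libraries and 3511, 3154 and 7023 in the NAC-OE libraries (119 ± 50.6 CPM, SD, n = 3).

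Ranks 9 to 12 were held by Lj2g3v1058050.1, Lj0g3v0342909.1, Lj6g3v1995890.1 and Lj2g3v1267200.1. Lj2g3v1058050.1 had 0, 4 and 14 counts in the control libraries and 3022, 2197 and 5204 in the NAC-OE libraries. Lj0g3v0342909.1 had 25, 6 and 18 counts in the control libraries and 3121, 2195 and 3882 in the NAC-OE libraries. Both had their lowest NAC-OE value in replicate 2 and their highest in replicate 3. Lj6g3v1995890.1 had 6, 2 and 20 counts in the control libraries and 2485, 2142 and 3552 in the NAC-OE libraries. Lj2g3v1267200.1 had no count in the control and 1748, 1456 and 3817 counts in NAC-OE, or 61.1 ± 30.9 CPM (SD, n = 3). In each of these 12 transcripts the GUS-OE and NAC-OE values were far apart, as the rule requires.

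CPM does not allow for length, so levels were compared between transcripts by FPKM, the deposited level per length of transcript and size of library. The first transcript was again Lj0g3v0000069.1, with 863 ± 472 FPKM in NAC-OE (SD, n = 3). The short transcripts Lj3g3v3236640.1 and Lj2g3v0561290.1 followed at 601 ± 26.8 and 581 ± 112 FPKM (SD, n = 3). The ranges of these 3 transcripts over the libraries overlapped. Within each NAC-OE library Lj0g3v0000069.1 was above Lj2g3v0561290.1, at 634.86 against 495.5, 548.98 against 540.02 and 1405.74 against 707.05 FPKM. Lj3g3v3236640.1 changed place with both from library to library, so its position is not resolved. All 3 values of Lj2g3v0561290.1 lay above those of Lj0g3v0167849.1, which came next at 218 ± 63.9 FPKM (SD, n = 3). Over the 99 steps from each transcript to the next in FPKM order, the NAC-OE values did not overlap in 2. The ranges of neighbouring positions thus overlapped in general, while their order within each library was not compared. The lists of the first 10 by CPM and by FPKM had 9 transcripts in common. The median NAC-OE level of the members was 13.0 FPKM, against 4.36 FPKM for the transcripts with whole-number counts and 3.27 FPKM for the whole table, a difference that the ranking itself brings. By FPKM in NAC-OE, the first of the members stood in place 206 of the whole table.

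**Figure D2:**
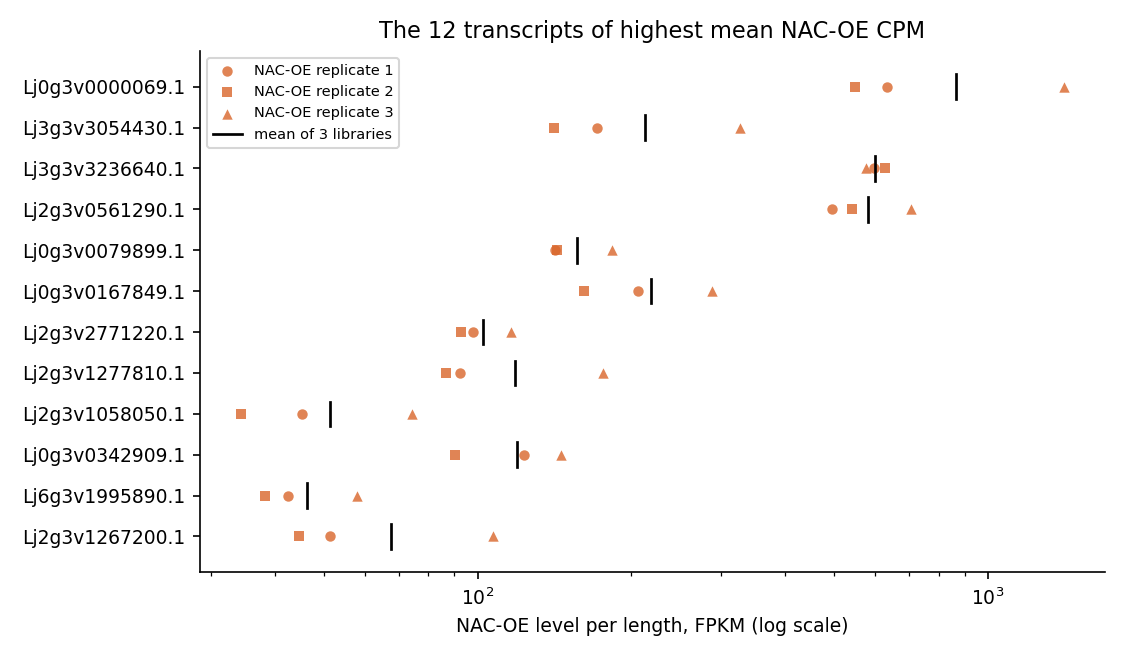
NAC-OE level per length, in FPKM on a log axis, of the 12 transcripts with the highest mean NAC-OE CPM, with a symbol for each library and a bar for the mean of the 3. Replicate 3 is the highest symbol in each row but that of Lj3g3v3236640.1, where the 3 libraries nearly coincide.

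The control level of the members ranged from no count to just under the ceiling. A total of 11 transcripts had no count in any GUS-OE library. They were Lj2g3v1267200.1 and Lj5g3v1190130.1, at 61.1 and 58.5 CPM in NAC-OE, and 9 others with mean NAC-OE levels from 7.45 to 26.4 CPM. Set against 3 counts summed over the control libraries, the floor that a count of 0 allows, the mean NAC-OE level of Lj2g3v1267200.1 was at least 2285-fold higher, and at least 1622-fold without NAC-OE replicate 3. For Lj5g3v1190130.1, with 1649, 1964 and 3058 counts in NAC-OE, the bounds were 2189-fold and 1836-fold. Both of these transcripts had a derived length of 900 bases. Over the 11 transcripts the lowest bound was 279-fold. Such bounds cover counting error in the control alone. They take each count as independent. Because low counts were mostly even, a count of 0 may allow more than 3 counts, and the bounds may then be too high. CPM also takes library totals without further scaling. The TMM scaling factors of the edgeR test below were 0.853 to 0.947 for GUS-OE libraries and 1.05 to 1.18 for NAC-OE libraries. With them the bounds, and the ratios given next, would be lower.

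The remaining 89 transcripts had at least 4 counts over the GUS-OE libraries, and 76 of the 100 were counted in each of them. The ratio of mean NAC-OE CPM to mean GUS-OE CPM had a median of 26.5 and ranged from 7.23 for Lj2g3v0415150.1 to 5085 for Lj3g3v3236640.1. With the 11 others placed at their bounds the median was 39.3. A ratio of at least 100 was found for 22 of the 89, and a ratio under 20 for 32. Ratios of single transcripts with few control counts were set by individual GUS-OE libraries. That of Lj0g3v0000069.1 was 4672 with all libraries and 15849 without GUS-OE replicate 1, and that of Lj3g3v3236640.1 was 10781 without the same library. The median over the members moved little, to between 28.1 and 29.6 when a GUS-OE library was left out.

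The few control counts of the leading transcripts were spread unevenly over the GUS-OE libraries. The first 10 members had 142, 46 and 153 counts in GUS-OE replicates 1, 2 and 3. The first 3 members and Lj2g3v1277810.1 had no count in GUS-OE replicate 2. Over all members the 3 control libraries were closer, with 1460, 1406 and 1945 counts and with 18, 16 and 13 members at 0. The highest value of any member in a control library was 75 counts, that of Lj0g3v0146209.1 in GUS-OE replicate 1, beside 3 and 29 counts in the other two.

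The edges of the list were not marked by a gap. Ranks 98, 99 and 100 were Lj2g3v0415150.1, Lj3g3v1282320.1 and Lj5g3v2111920.1, with mean NAC-OE levels of 7.10, 7.06 and 6.99 CPM. The next transcripts, which were left out, were Lj0g3v0319589.1, Lj0g3v0162709.1 and Lj5g3v1806990.1, at 6.97, 6.88 and 6.84 CPM. Of these Lj0g3v0162709.1 had no count in GUS-OE. Just under the control ceiling were Lj2g3v1718730.1, Lj2g3v0415150.1 and Lj0g3v0146209.1, with GUS-OE means of 0.990, 0.983 and 0.980 CPM. Just over it were Lj1g3v4483820.1, Lj0g3v0314729.1 and Lj0g3v0315589.1, at 1.01, 1.03 and 1.04 CPM, of which Lj0g3v0315589.1 reached 31.6 CPM in NAC-OE. A control mean from 1 to 2 CPM together with a NAC-OE level of at least the lowest member was found for 94 transcripts with whole-number counts. The list is therefore a stretch of a continuous distribution.

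In the test across the whole table (edgeR quasi-likelihood test, Benjamini-Hochberg adjusted p under 0.05), all 100 were called higher in NAC-OE, beside 31.5% of the 46346 transcripts tested. All 100 also had each NAC-OE value above each GUS-OE value, beside 43.3% of the whole table and 35.3% of the transcripts with whole-number counts. The rule used these libraries, so neither count says more than the rule does. The smallest distance between the groups, measured as the lowest NAC-OE over the highest GUS-OE CPM, was 3.24 for Lj0g3v0304349.1, which had 10, 63 and 10 counts in the control libraries and 271, 354 and 213 in the NAC-OE libraries.

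To read such transcripts in libraries whose levels had no part in the choice, the ceiling and the ranking of the rule were applied to 2 replicates of each group, and the 100 transcripts found were read in the libraries left out. The condition of whole-number counts was kept over all 6 libraries. With replicate 1, 2 or 3 left out, 89, 90 and 86 of those chosen were also members. In the libraries left out, NAC-OE was above GUS-OE for 100 of 100 transcripts each time, beside 50.4%, 51.0% and 53.8% of all whole-number transcripts in the same pairs of libraries. NAC-OE was at least 10-fold GUS-OE, a control count of 0 included, for 85, 88 and 85 of them, beside 6.24%, 6.55% and 5.87%. The control level left the range of the rule more often, since it was under 1 CPM for 89, 92 and 74 transcripts in GUS-OE replicates 1, 2 and 3, and reached 4.67 CPM in replicate 3. The median NAC-OE level in the libraries left out was 11.8, 11.4 and 14.1 CPM. Each reading sets 1 library against 1, so no test was made. The whole-number transcripts set beside them were not chosen for a contrast, and libraries of a group may be technical repeats. The readings thus describe how far the contrast recurs from library to library, and no more.

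**Figure D3:**
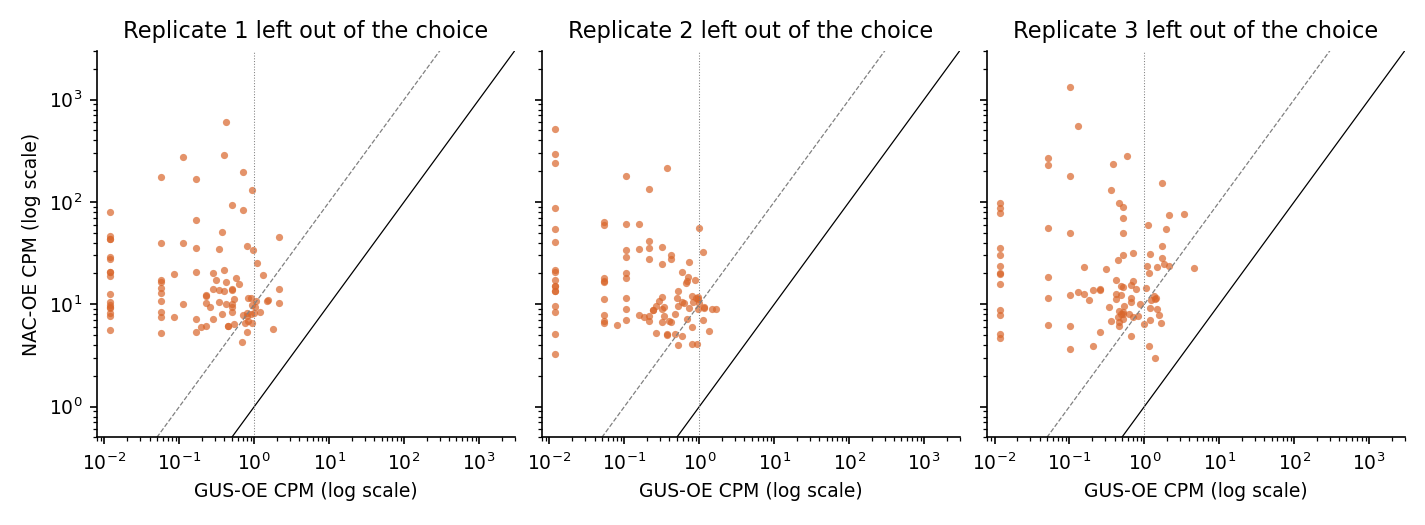
CPM in the GUS-OE library (horizontal, log axis) and the NAC-OE library (vertical, log axis) that were left out when 100 transcripts were chosen on the other replicates. Values of 0 are drawn at the left edge, the solid line marks equal levels, the dashed line marks 10-fold, and the dotted line marks 1 CPM; all 100 points of each panel lie above the solid line.

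The members were spread more widely over these 3 NAC-OE libraries than other transcripts in the same range of abundance. The coefficient of variation (CV, the SD divided by the mean of the 3 CPM values) had a median of 25.7% over the members. It was 14.7% over the 5153 other transcripts with whole-number counts and a mean NAC-OE CPM in the range of the members. The CV of 59 members was above the upper quartile of those transcripts, which was 21.4%. The highest NAC-OE library was at least 2-fold the lowest for 28 members, or 28.0%, against 4.85% of the other transcripts. Without NAC-OE replicate 3 both medians were lower, at 15.4% and 10.7%. The 100 transcripts chosen by the mirrored rule, high in GUS-OE and under 1 CPM in NAC-OE, had a median CV of 17.6% in the libraries where they were high, against 10.8% there for the same 5153 transcripts. Those 5153 were taken by their NAC-OE level and not by the GUS-OE level of the mirrored list. The other transcripts share the range of the members but were not matched to their levels. Members were ranked by the mean of these 3 NAC-OE libraries, which a high value in 1 of them raises. Their CV is therefore not independent of the rule. These are descriptions of 3 libraries, and the difference between the lists was not tested.

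The deviations did not all run the same way. NAC-OE replicate 3 was the highest library for 55 members, replicate 2 for 32 and replicate 1 for 13. Among the other transcripts in the same range of abundance the shares were 48.6%, 21.6% and 29.8%. With CPM from TMM-scaled library sizes the members numbered 53, 37 and 10 and the shares of the others were 38.8%, 35.2% and 26.0%. The size of the difference thus depends on the scaling, for replicate 2 and for replicate 3. By rank, 18 of ranks 1 to 20 were highest in replicate 3, against 17 of ranks 21 to 50 and 20 of ranks 51 to 100. The ranks come from the mean of these libraries, so a high value in 1 of them itself raises a rank. No trait of abundant transcripts can be read from these counts. The count of 18 was the same with that scaling. The 2 exceptions among the first 20 were Lj3g3v3236640.1 and Lj0g3v0216869.1. The latter, of 2856 bases, had 4, 2 and 2 counts in the control libraries and 1503, 2301 and 738 in the NAC-OE libraries.

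A difference of at least 2-fold between NAC-OE replicates 2 and 3 was present in 25 members, which were looked at after their values were seen. In 14 of them replicate 3 was higher and in 11 replicate 2 was higher. With TMM-scaled library sizes the counts were 7 and 17, so the balance turned with the scaling, while transcripts deviating in opposite directions were found under either. Among the other transcripts in the same range of abundance the shares without that scaling, to be read beside 14 and 11, were 2.70% and 1.82%. Their shares with it were not computed. NAC-OE replicate 1 lay between replicates 2 and 3 in 13 of the 14 and in 11 of the 11. The pick by a wide gap between those libraries favours this, and no share of the other transcripts was taken. The 14 included 6 of the first 20 members and held 0.126%, 0.105% and 0.253% of the counts of NAC-OE replicates 1, 2 and 3. The 11 held 0.0164%, 0.0281% and 0.00938%. The remaining 75 members held 0.208%, 0.207% and 0.254%. Most of the larger share of replicate 3 in the whole list thus lay in the 14, which were taken for being high there.

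The most even members were Lj5g3v2183750.1, Lj3g3v3236640.1 and Lj0g3v0049599.1, with CVs of 3.60%, 4.45% and 5.08%. The most uneven were Lj1g3v3137840.1, Lj0g3v0201419.1 and Lj0g3v0207649.1, with CVs of 69.4%, 67.9% and 65.0%. Lj1g3v3137840.1 had 314, 249 and 902 counts in NAC-OE replicates 1, 2 and 3. Lj0g3v0201419.1 had 285, 582 and 156 counts, and Lj0g3v0207649.1 had 773, 1297 and 318. The first of these was thus highest in replicate 3 and the others in replicate 2. In the GUS-OE libraries all 3 were low, with 43, 8 and 25 counts, 3, 14 and 8 counts, and 6, 12 and 19 counts.

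**Figure D4:**
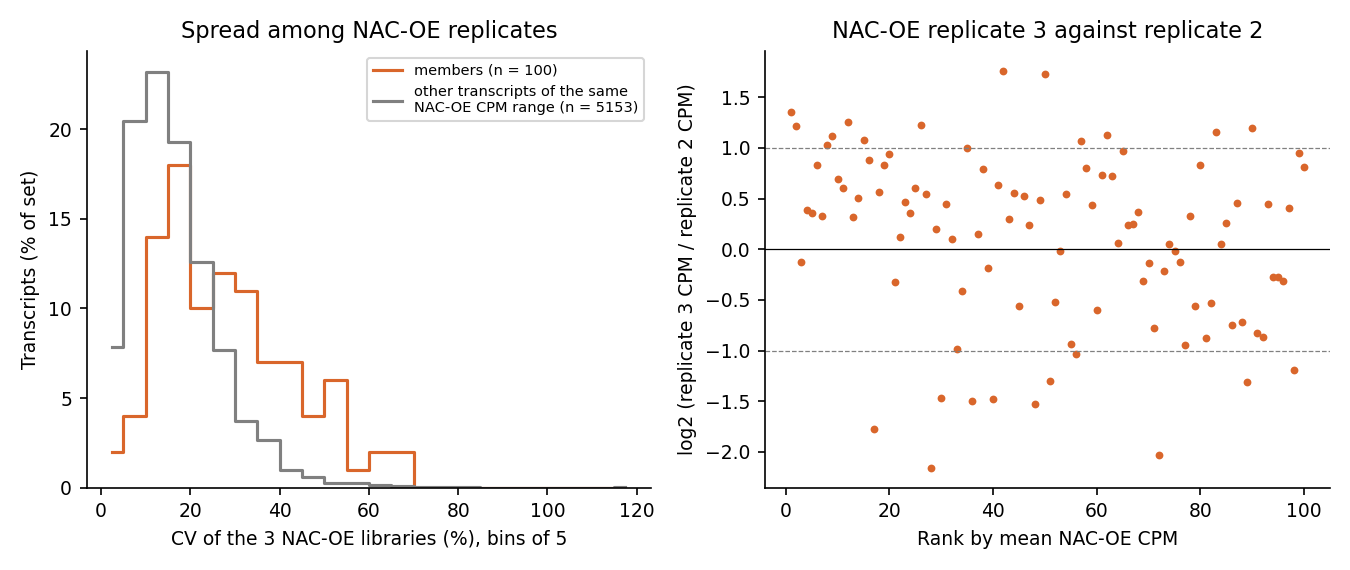
Left, share of the members and of the other transcripts in the same range of NAC-OE CPM, in bins of the CV of the 3 NAC-OE libraries, in percent. Right, log2 ratio of NAC-OE replicate 3 to replicate 2 for each member by rank, with dashed lines at 2-fold either way; 14 members lie on or above the upper line and 11 on or below the lower.

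Members came from the whole genome and from 99 loci. Read from the identifiers, 38 were on unplaced sequence and 13, 14, 11, 5, 14 and 5 on chromosomes 1 to 6. The 2928 candidates under the control ceiling had 46.5% on unplaced sequence and 6.63% on chromosome 5, and the whole-number transcripts had 35.1% and 8.37%. No test was made between chromosomes. Lengths, derived from the ratio of count to FPKM, had a median of 1248 bases and quartiles of 865 and 1801 bases. For the other transcripts with whole-number counts the median was 1314 bases. The shortest members were Lj5g3v1988810.1, Lj5g3v1793500.1 and Lj0g3v0152289.1, at 219, 253 and 354 bases. The longest were Lj3g3v2296570.2, Lj3g3v2296570.1 and Lj4g3v1329920.1, at about 3779, 3760 and 3640 bases.

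Lj3g3v2296570.1 and Lj3g3v2296570.2 are transcripts of the same locus and had identical counts in all 6 libraries, with 231, 319 and 289 in NAC-OE. They count as 1 measurement, and they are a case in which whole-number counts were given to several transcripts of a locus. The other 98 members were the only transcripts listed for their loci. Reads of near-identical copies or of an overlapping antisense gene cannot be told apart from a member's own, since no source used here gives the settings of featureCounts, among them the handling of shared reads and of strand.

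In 2 cases members sat at loci next to each other in identifier order. Lj0g3v0273769.1 had 12, 20 and 27 counts in the control libraries and 522, 490 and 661 in the NAC-OE libraries, and Lj0g3v0273779.1 had 2, 13 and 7 and then 316, 337 and 439. Both were highest in NAC-OE replicate 3, but they are on unplaced sequence, where identifier order does not fix a position. The other pair was Lj2g3v0415150.1 and Lj2g3v0415160.1 on chromosome 2. The first had 317, 324 and 155 counts in NAC-OE and the second 588, 389 and 501, so that they differed in which library was lowest.

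Transcripts at the loci on either side of the members in identifier order, which the rule did not use, were called in both directions. Of 251 tested transcripts at 193 such loci, 73 (29.1%) were called higher in NAC-OE and 81 (32.3%) lower (edgeR quasi-likelihood test, Benjamini-Hochberg adjusted p under 0.05). Over the whole table the shares were 31.5% and 30.7%. With library size alone in place of TMM factors, 91 neighbours were higher and 47 lower, so the balance turned with the scaling. The whole table moved as well, with 39.9% called higher and a median log2 fold change of 0.34. Its share called lower was not taken with that setting, so no trait of the neighbours can be read from the turn. With TMM factors the median log2 fold change of the neighbours was -0.13, against 0.01 for all transcripts tested. Among neighbours with whole-number counts, 30 of 83 (36.1%) rose and 27 (32.5%) fell, against 25.9% and 38.6% of all such transcripts. Identifier order fixes a position only on chromosomes 1 to 6. There 41 of 157 neighbours (26.1%) were called higher and 52 (33.1%) lower, beside 30.9% and 31.9% of all transcripts of these chromosomes. Of those with whole-number counts 15 of 50 (30.0%) were higher and 15 lower, beside 25.4% and 40.4%. On unplaced sequence loci next to each other in order need not be neighbours. There 32 of 94 (34.0%) were called higher and 29 (30.9%) lower, beside 32.5% and 28.4% of all transcripts of unplaced sequence. Of those with whole-number counts 15 of 33 were higher and 12 lower. The shares over all whole-number transcripts of unplaced sequence were not taken. No test of any of these differences was made.

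Several transcripts at these loci changed by a wide margin, and those given here were picked after their values were seen. Lj5g3v0802990.1, next to the member Lj5g3v0802980.1, had no count in GUS-OE and 673.5, 787 and 932 counts in NAC-OE. The member itself had no count in GUS-OE and 1037, 785 and 1184 counts in NAC-OE, so both were listed at 0 in all control libraries. Lj5g3v1793490.1, next to Lj5g3v1793500.1, had 5.33, 43.75 and 10 counts in the control libraries and 2732, 3416 and 1859 in the NAC-OE libraries. Both of these neighbours had fractional counts and could not become members. Lj5g3v2183730.1, next to the even member Lj5g3v2183750.1, reached 601 CPM in NAC-OE from 5.21 CPM in GUS-OE. In the opposite direction, Lj3g3v2296610.1 had 102, 341 and 363 counts in the control libraries and 10, 2 and 8 in the NAC-OE libraries, beside the member locus Lj3g3v2296570. Changes as wide were found on unplaced sequence, with log2 fold changes of 6.72 for Lj0g3v0303539.1, 6.28 for Lj0g3v0084629.1, -7.01 for Lj0g3v0216849.1 and -5.69 for Lj0g3v0167859.1. Fitted values of this size rest on groups at or near 0 and are not exact.

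**Figure D5:**
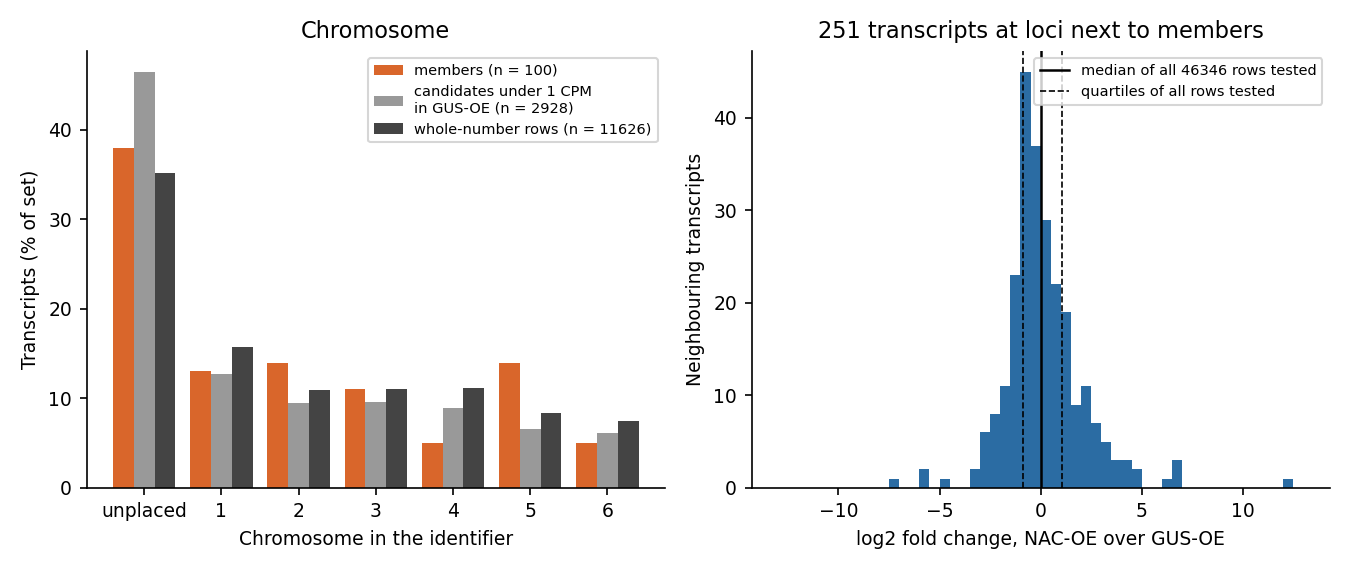
Left, percentage of the members, of the candidates under the control ceiling and of all whole-number transcripts on each chromosome of the identifier. Right, number of neighbouring transcripts by log2 fold change of NAC-OE over GUS-OE, with the median (0.01) and quartiles (-0.88 and 1.06) of all transcripts tested as vertical lines; the neighbours centre on -0.13.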

How the data were processed

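Per the labels' protocols, 6 libraries, 3 of each group, were made from total RNA of root nodules with a NEB Ultra II kit. Reads went through fastp 0.22.0, HISAT2 and featureCounts, as far as the submitters' processing notes name tools. Genome build, annotation and settings were not given in the sources used here. The authors deposited an estimated count, which need not be whole, and an FPKM per transcript and library, per the file headers. Rows with a total under 32.7 counts do not occur.

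CPM was computed from column sums. Lengths came from the count, the FPKM and the library total that made lengths whole, 1.0015 to 1.0032 times the column sum, and were within 5% for all members. Counts were rounded and tested over the whole table with edgeR 4.0.16 in R 4.3.3 (TMM, filterByExpr with a minimum count of 10, robust glmQLFit and glmQLFTest, group alone). Alternatives used DESeq2 1.42.0 and limma 3.58.1, and the procedures were tested on simulated data. Replicates differed by far more than sampling noise (chi-square per degree of freedom of at least 13.5), so no library was a duplicate. None of the identifiers matched the 40429 genes of the reference table, so no gene lists were tested. The labels give no batch.

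The members and the rules were chosen with earlier results of these data known. Named transcripts were the first 12 by CPM, those at the edges of the rule, the 3 most and least even, the 3 longest and shortest, members at adjacent loci and the 3 rows most alike. Others are said to have been picked after their values were seen, or are members with no control count, extreme ratios or exceptions to a count.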

Additional observations from a re-analysis of the deposited data

How the results depend on the processing

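All 100 members were called higher with DESeq2, limma-voom, the replicate block, RLE factors, library size alone, either filter setting (none, or 1 CPM) and each library left out. The rule had used the same contrast. Of all transcripts tested, 31.1% were called higher with DESeq2, 31.7% with limma-voom, 30.5% with the replicate block and 31.6% with RLE factors. The share was 39.9% with library size alone, 31.5% without a filter, 34.0% with the 1 CPM filter and 27.7% to 31.6% without 1 library. With the replicate number as a block, 68 neighbours were higher and 73 lower. Deviations of same-numbered libraries correlated at -0.06, 0.11 and -0.05, and no pair of libraries exceeded 0.20. Neighbours called higher were 64 to 73 without 1 library and 91 with library size alone, where 39.9% of the table was higher. Neighbours called lower were 57 to 77 without 1 library and 47 with library size alone, which moves the median of all transcripts from 0.01 to 0.34. The share of all transcripts called lower was not taken for each setting. With whole-number neighbours alone, fewer transcripts entered and 30 were higher and 27 lower.

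Membership depended on the rule. Of the 100, 56 were chosen with a control ceiling of 0.5 CPM, 54 with 2 CPM, 66 by ranking on FPKM and 37 when fractional counts were included. The lower ceiling left 1770 candidates in place of 2928, while the higher ceiling and the fractional counts admitted more. Without 1 library 88 to 95 were kept, and 92 with TMM-scaled CPM. The members' share of NAC-OE counts was 1.16% of whole-number transcripts alone, by its smaller denominator, and 0.345% to 0.433% of all counts without 1 library. Their median level was 11.2 CPM with TMM scaling and 11.96 to 12.2 CPM without 1 library. The median CV was 15.4% to 28.9% without 1 library. Members with no control count were 11 to 12 without 1 library. No other transcripts were listed for member loci, so that comparison was not run. Depth limits the control levels, most of which rest on few counts, with a median of 49 over the 3 libraries.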

Other observations

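Over the 6 libraries the members' profiles followed the contrast between the groups, as the rule requires. High correlations over both groups follow from that choice. Within the NAC-OE libraries the members differed, as described above. The correlation of log2(CPM + 0.1) with the mean profile of the members had a median of 0.99 and a lowest value of 0.90 (n = 6 libraries of 2 separate groups, given as a description). Outside the list the most alike transcript was Lj1g3v3768290.2, with 527, 554.5 and 655.5 counts in the control libraries and 6331, 6134 and 6903 in the NAC-OE libraries. Next came Lj3g3v1683570.1 and Lj3g3v1683570.2, with identical counts of 29.5, 28.5 and 36 in the control libraries and 518, 496 and 596.5 in NAC-OE. Their control mean of 0.837 CPM and NAC-OE mean of 14.2 CPM would have placed them among the members had their counts been whole.

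The mirrored list of 100 transcripts, high in GUS-OE and under 1 CPM in NAC-OE, held 0.239% ± 0.00338 of the GUS-OE counts and 0.00473% ± 0.000721 of the NAC-OE counts (SD, n = 3). Its median length was 974 bases, against 1248 bases for the members, and 6 of its transcripts were longer than 2000 bases, against 19 of the members. Over all transcripts of known length 26.4% were longer than 2000 bases. Across the 100 members, control and NAC-OE levels had a Spearman rho of -0.27, and NAC-OE level and length a rho of 0.05. Both are descriptions over transcripts that share libraries and were chosen on these levels.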
